A study of Mus musculus with 11 samples.

Results

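Cadherins and protocadherins are calcium-dependent adhesion receptors of the cell surface. The genes described here were those annotated as protein-coding in the GENCODE mouse annotation whose symbol is Cdh followed by a number or begins with Pcdh. The rule itself reads the symbol and the annotation only. Of the 53801 genes in the tables, 92 met it, namely 23 cadherins, 12 protocadherins outside the gene clusters and 57 clustered protocadherins. The cadherins comprised 5 type I classical, 13 type II classical and 5 other members. The non-clustered protocadherins comprised 4 of the δ1 family, 5 of the δ2 family and 3 others, and the clusters held 14 Pcdha, 22 Pcdhb and 21 Pcdhg genes.

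RNA was sequenced in 11 libraries from primary NSCs taken from the hippocampus of mouse embryos. The study's methods name C57BL/6 mice as its animals, and the labels give no genotype. The cells received 1 µM 4HBP or its vehicle EtOH (control) for 7 days, in proliferation medium (3 libraries with 4HBP and 3 with EtOH) or in differentiation medium (3 and 2). Both media were DMEM/F12 with B27 and glutaMAX, and only proliferation medium held the growth factors EGF and bFGF. The labels call the compound 4-Hydroxybenzoic acid, whereas the study's text calls it 4-hydroxybenzophenone. Neither says whether the replicates of a group came from separate animals or cultures, so that the p-values measure only the spread between these libraries, which may be technical. Each library held between 20822921 and 23438463 expected counts (the fragments that RSEM assigned to genes, with ambiguous fragments shared out), and 3 counts, taken as the detection floor, correspond to 0.128 to 0.144 CPM, a unit in which every library sums to the same total. Replicates differed more in proliferation medium, with a biological coefficient of variation of 0.117, than in differentiation medium, with 0.0368. The library furthest from its replicates was replicate 3 with 4HBP in proliferation medium, and counts are given without it as well.

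Classical cadherins bind the same or a related cadherin on the neighbouring cell through their outermost domain and hold on to the actin cytoskeleton through the catenins. In the developing brain they form the adherens junctions of the ventricular surface, and the type II members sort neurons into nuclei and layers. Clustered protocadherins work differently: each cell uses only some of the promoters of the cluster, chosen with the help of CTCF and cohesin, and the resulting set of isoforms gives a neuron a surface identity by which its own branches recognise and avoid each other. The non-clustered δ protocadherins tune cell movement, axon growth and synapses.

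Members of the Pcdha and Pcdhg clusters share reads, because each transcript joins 1 variable exon of its own to constant exons that the whole cluster uses. Of all 100-base words in the transcripts of a gene, a median of 55.4% in Pcdha (range 41.6% to 88.4%) and 43.6% in Pcdhg (30.8% to 62.7%) also occurred in another gene. The Pcdhb genes have no constant exons, and their median was 0.208%, with the highest share in Pcdhb21 at 7.73%, which it shares with Pcdhb22. Outside the clusters no member exceeded 0.048%. Accordingly 100% of the values above 0 in Pcdha and 98.3% in Pcdhg were not whole counts (more than 0.005 away from a whole number), against 17.8% in Pcdhb, 3.48% outside the clusters and 18.6% over all genes. Values of single Pcdha and Pcdhg genes therefore rest on how RSEM divided the fragments of the constant exons, and the sums over each cluster are given beside them. Symbol Pcdha11 belongs to 2 genes in the annotation, ENSMUSG00000007440 and ENSMUSG00000102206, which are kept apart here.

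Levels of different genes were ordered by TPM, which is scaled to transcript length. Expression was concentrated in a few members. In control proliferation medium 61 of the 92 genes reached a mean of 1 TPM and 21 reached 10 TPM, and in control differentiation medium 65 and 30 did. Pcdhgc3, a C-type isoform of the Pcdhg cluster, had the highest level in all 4 groups, with 329 ± 4.3 TPM (SD, n = 3) in control proliferation medium and 437 ± 22.5 TPM (n = 2) in control differentiation medium. This placed it above 98.5% of the genes detected in the former group and above 98.95% in the latter.

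In control proliferation medium T-cadherin (Cdh13), which is anchored in the membrane by a lipid and lacks the tail that binds catenins, followed with 208 ± 21.3 TPM. N-cadherin (Cdh2), the main adherens junction cadherin of neural progenitors, came after it with 167 ± 7.3 TPM. In control differentiation medium Cdh2 was the second member with 227 ± 5.5 TPM, and Cdh13 stood at 34.3 ± 1.6 TPM. Below Cdh2 in control proliferation medium came the δ2 protocadherin Pcdh10 (91.3 TPM), R-cadherin (Cdh4, 47.0 TPM), Cdh11 (44.8 TPM), the δ1 protocadherin Pcdh9 (41.8 TPM) and Pcdhgc4 (36.9 TPM). Within that run the order of Cdh4, Cdh11, Pcdh9 and Pcdhgc4 is not settled. The SD of the replicates was 9.2 TPM for Cdh4 and 14.1 TPM for Pcdhgc4, but 3.2 TPM for Cdh11.

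At the other end, VE-cadherin (Cdh5) of endothelium and Pcdh12 were at 0 counts in all 11 libraries, which allows up to 0.144 CPM in the shallowest library by the floor of 3 counts. E-cadherin (Cdh1), the epithelial cadherin, had between 0 and 7 counts per library, M-cadherin (Cdh15) of muscle between 0 and 5, and P-cadherin (Cdh3) 1 count in 1 library. The remaining type I members, Cdh2 and Cdh4, thus carried nearly all reads of that family. Among the clusters the Pcdha genes were low, with only 1 of 14 above 1 TPM in control proliferation medium (Pcdhac2 at 4.57 TPM). In Pcdhb 20 of 22 exceeded 1 TPM but none reached 10 TPM in any group, and all 21 Pcdhg genes exceeded 1 TPM in every group.

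**Figure D1:**
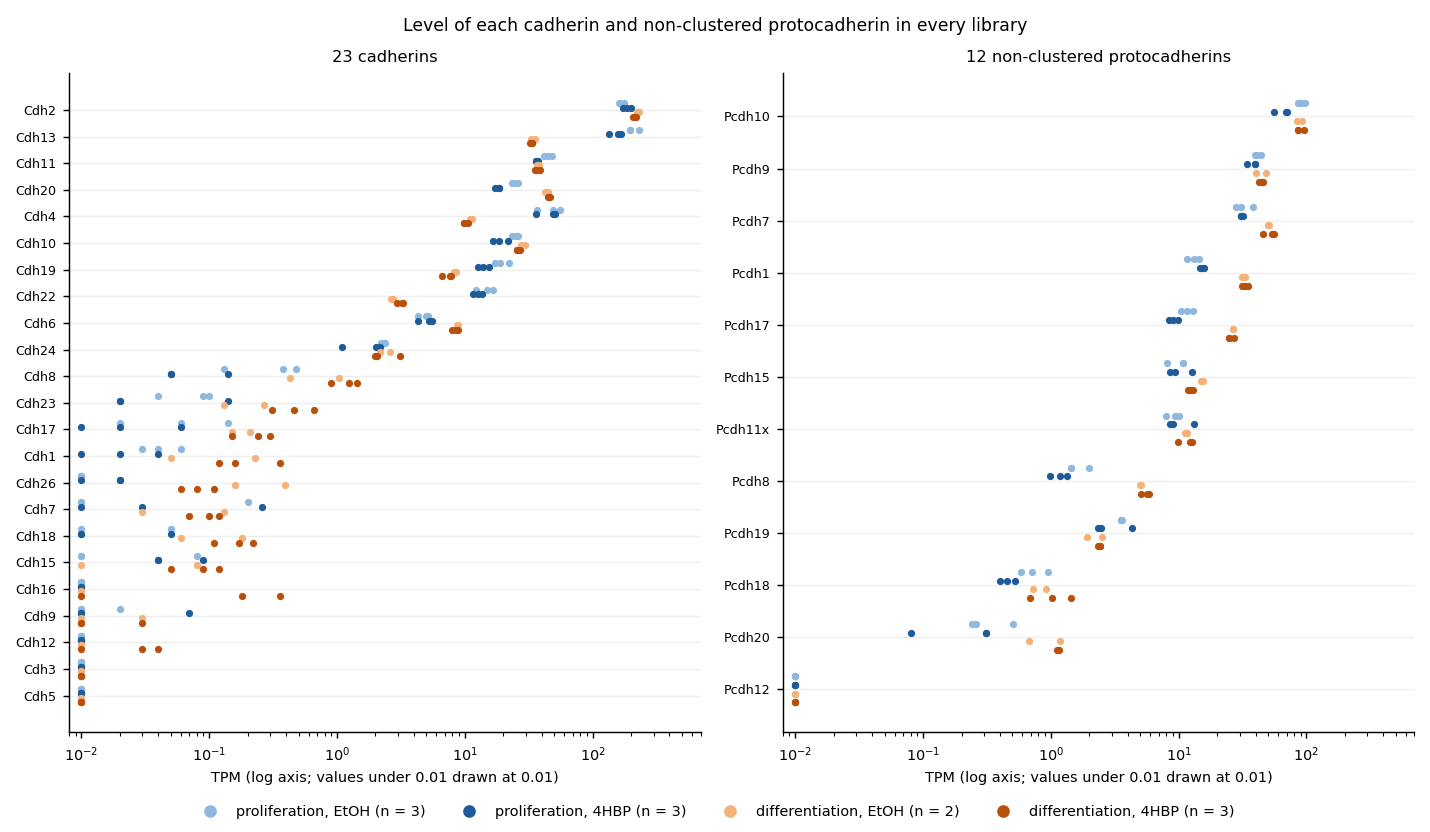
Level in TPM (log axis) of each cadherin (left) and non-clustered protocadherin (right) in every library, ordered by the mean of the group means, with 1 point per library and colours for the 4 groups. Cdh2 and Cdh13 lead on the left, where Cdh13 and Cdh4 sit lower in both differentiation groups, and Pcdh10 leads on the right, with its proliferation 4HBP points (mean 65.1 TPM) below its control points (mean 91.3 TPM).

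**Figure D2:**
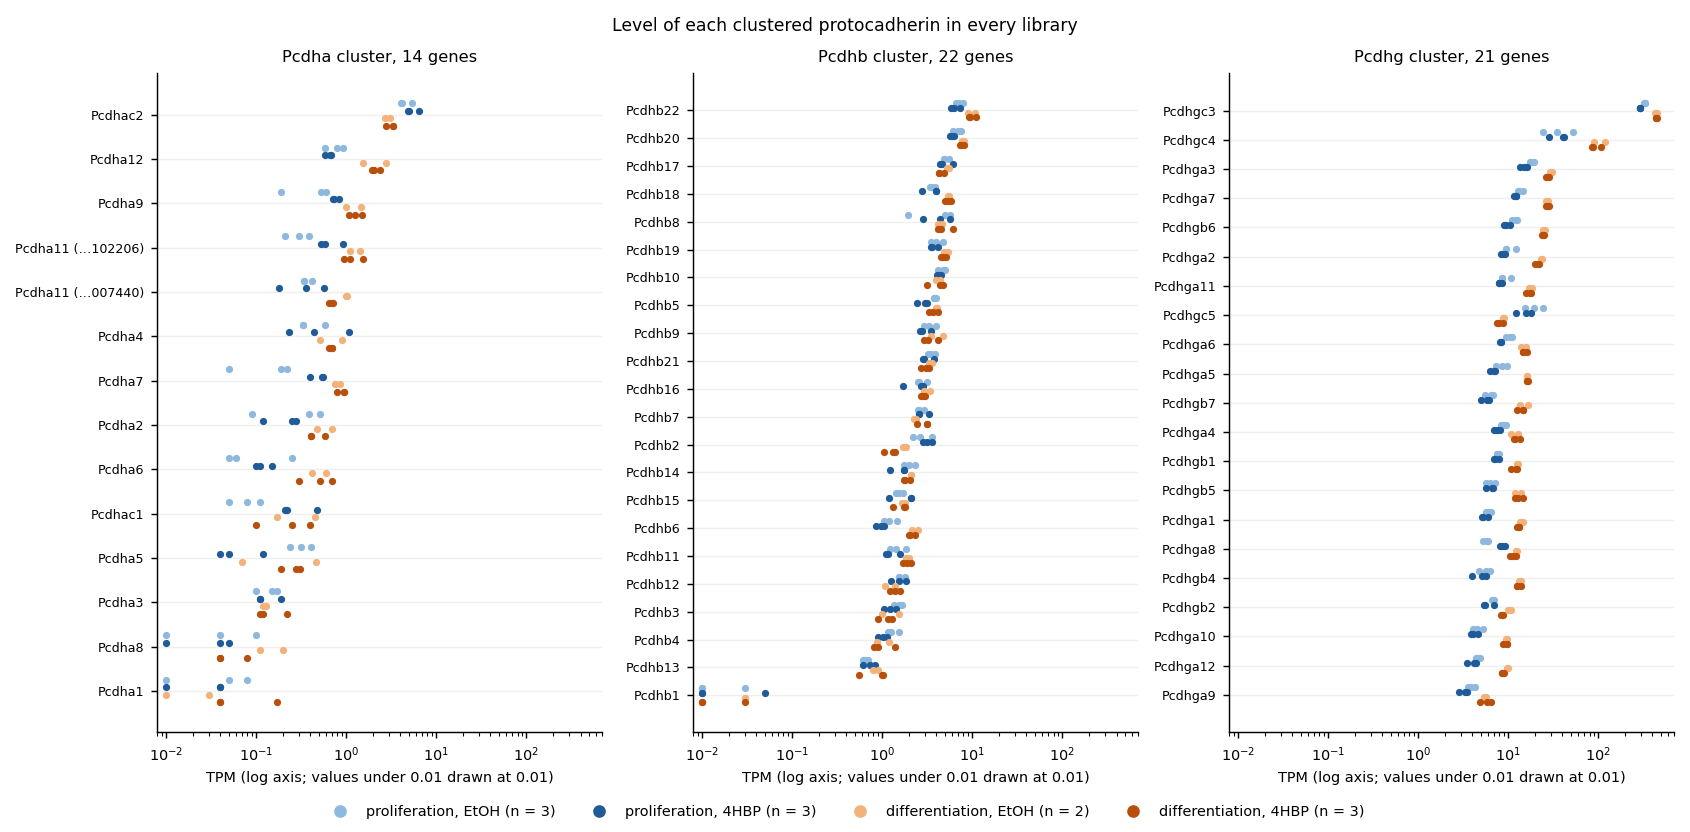
Level in TPM (log axis) of each gene of the Pcdha, Pcdhb and Pcdhg clusters in every library, with 1 point per library and colours for the 4 groups. Pcdhgc3 stands apart from the other clustered genes, with group means between 291 and 442 TPM, and Pcdhac2 leads the Pcdha genes.

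The first comparison asked what 4HBP does to these genes in NSCs kept proliferating. Of 74 members that passed the filter on low counts, 12 passed an adjusted p of 0.05 in edgeR's quasi-likelihood test, 9 lower with 4HBP and 3 higher. That is 16.2% of the members tested, against 7.43% of all 14449 genes tested (3.69% lower and 3.74% higher). Outside the clusters 6 of 21 passed (28.6%), all lower. In the clusters 6 of 53 did (11.3%), 3 lower and 3 higher. The median log2 fold change of the members was -0.21, beside 0.0014 over all genes, and 60 of the 74 were negative. Of these, 17 lay outside the clusters and 43 in them, where Pcdha and Pcdhg genes share reads and are not separate observations. The 12 calls depended on single libraries. Without replicate 1 or replicate 2 of the EtOH group 0 members passed in edgeR (107 and 137 genes of all passed), without replicate 2 of the 4HBP group 1 did, and without replicate 3 of the EtOH group 3 did. In limma on log2(CPM+1) 0 members and 18 of all genes passed. In the edgeR fit of all 6 libraries 27 of the 74 members had an unadjusted p under 0.05, beside 3621 of all 14449 genes. Without replicate 3 of the 4HBP group the count was again 12, with 10 genes shared. The number of negative fold changes moved less, from 55 of 75 to 62 of 75 when each library was left out in turn.

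The members lower with 4HBP outside the clusters were 3 type II cadherins, T-cadherin and 1 protocadherin of each δ family. Cdh20, a type II classical cadherin, had 68.6, 75.7 and 67.9 CPM in the control libraries and 54.0, 49.2 and 51.9 CPM with 4HBP. All 3 libraries with 4HBP lay below the 3 controls, with a log2 fold change of -0.48 ± 0.08 (SE, n = 3 and 3, edgeR adjusted p = 0.0126). Pcdh10 had 379, 406 and 377 CPM in controls and 315, 287 and 248 CPM with 4HBP, again without overlap (-0.48 ± 0.11, edgeR adjusted p = 0.0314). Pcdh9 had 142, 144 and 132 CPM in controls and 118, 104 and 118 CPM with 4HBP (-0.33 ± 0.08, edgeR adjusted p = 0.0344).

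Cdh13 had 398, 357 and 371 CPM in the control libraries and 296, 290.5 and 227 CPM with 4HBP. The lowest value was that of replicate 3 with 4HBP, and the groups did not overlap (-0.50 ± 0.12, edgeR adjusted p = 0.0367). Cdh19, a type II cadherin known from Schwann cell precursors, had 43.9, 53.5 and 50.5 CPM in controls and 37.7, 31.8 and 38.3 CPM with 4HBP (-0.49 ± 0.11, edgeR adjusted p = 0.0285). Cdh11 had 179.8, 189 and 171 CPM in controls and 155, 146 and 140.3 CPM with 4HBP (-0.32 ± 0.08, edgeR adjusted p = 0.0414). Each of these genes was lower in 3 of 3 libraries with 4HBP than in every control.

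Other members had negative values that missed the threshold. Cdh10 stood at -0.43 ± 0.12 (edgeR adjusted p = 0.0596), Pcdh17 at -0.37 ± 0.11 (0.0629) and Pcdh18 at -0.80 ± 0.26 (0.0924). N-cadherin, Cdh2, had 464, 478 and 514 CPM in controls and 546, 503 and 564 CPM with 4HBP, overlapping ranges with a log2 fold change of 0.11 ± 0.08 (edgeR adjusted p = 0.43). For Cdh4 the value was -0.09 ± 0.18 (edgeR adjusted p = 0.804). All 5 δ2 members were negative, although Pcdh10 was the one past the threshold, whereas the δ1 members were split 2 and 2.

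Markers of astrocytes moved in the same libraries. The summed CPM of 6 astrocyte markers ranged from 7178 to 7888 in controls and from 5732 to 6544 with 4HBP, and Gfap (-0.68) and Aqp4 (-0.66) were the 2 of 6 that passed in edgeR, both lower. The 7 oligodendrocyte lineage markers summed to 2673 to 3310 CPM in controls and to 1831 to 2932 CPM with 4HBP, with 0 of 7 past the threshold. For neuronal markers the sums ranged from 926 to 1022 CPM in controls and from 914 to 968 CPM with 4HBP. The 6 NSC markers summed to 4541 to 5339 CPM in controls and to 4506 to 5116 CPM with 4HBP. Their median log2 fold change was -0.20, and 0 of 6 passed in edgeR. Microglial markers did not exceed 3.73 CPM in sum in any library, and endothelial markers reached at most 20.6 CPM. The part of these markers in the cadherin values was not tested, and fewer cells of a type cannot be told apart from less RNA per cell in bulk libraries.

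For the members that fell together in proliferation medium, the start of the gene is shown where the RefSeq promoter table (GRCm38.p6) held it, from 250 bases before to 50 bases after the start. Of the 92 members, 22 matched this table by symbol, with 25 windows. Windows of Cdh20 (chr1:104768270-104768569, plus strand), Pcdh10 (chr3:45378148-45378447, plus strand) and Pcdh9 (the first of 2 windows, chr14:93890620-93890919, minus strand) are printed, followed by that of Pcdh15 (chr10:73821617-73821916, plus strand), the member past the threshold in differentiation medium, and of Cdh22 (chr2:165234688-165234987, minus strand), which changed most between the media among the type II cadherins called in control cells. They are written from 5′ to 3′ on the strand of the gene, and capitals mark CG dinucleotides.
Cdh20: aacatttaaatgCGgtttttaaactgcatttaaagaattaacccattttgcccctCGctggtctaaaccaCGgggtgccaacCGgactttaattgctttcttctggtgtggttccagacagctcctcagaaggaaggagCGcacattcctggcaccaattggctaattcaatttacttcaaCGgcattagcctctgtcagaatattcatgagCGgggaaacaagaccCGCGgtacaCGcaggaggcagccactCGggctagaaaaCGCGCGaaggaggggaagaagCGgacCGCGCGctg
Pcdh10: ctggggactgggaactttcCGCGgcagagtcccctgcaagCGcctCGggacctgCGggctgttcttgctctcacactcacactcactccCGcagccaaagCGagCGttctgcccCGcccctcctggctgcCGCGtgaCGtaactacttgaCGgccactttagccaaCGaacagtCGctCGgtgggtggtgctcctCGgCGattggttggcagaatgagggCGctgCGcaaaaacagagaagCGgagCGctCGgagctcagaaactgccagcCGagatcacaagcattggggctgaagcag
Pcdh9: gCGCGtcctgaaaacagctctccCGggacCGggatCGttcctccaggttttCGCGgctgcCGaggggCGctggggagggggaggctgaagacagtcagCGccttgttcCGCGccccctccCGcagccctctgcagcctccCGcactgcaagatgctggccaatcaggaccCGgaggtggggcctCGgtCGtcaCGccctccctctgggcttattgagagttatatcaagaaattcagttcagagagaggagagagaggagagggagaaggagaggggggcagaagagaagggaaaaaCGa
Pcdh15: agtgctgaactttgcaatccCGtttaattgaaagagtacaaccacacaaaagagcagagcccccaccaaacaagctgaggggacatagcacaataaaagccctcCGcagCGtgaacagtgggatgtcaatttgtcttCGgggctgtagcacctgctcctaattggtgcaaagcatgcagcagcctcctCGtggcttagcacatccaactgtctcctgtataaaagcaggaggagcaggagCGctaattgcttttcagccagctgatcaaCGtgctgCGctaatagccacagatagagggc
Cdh22: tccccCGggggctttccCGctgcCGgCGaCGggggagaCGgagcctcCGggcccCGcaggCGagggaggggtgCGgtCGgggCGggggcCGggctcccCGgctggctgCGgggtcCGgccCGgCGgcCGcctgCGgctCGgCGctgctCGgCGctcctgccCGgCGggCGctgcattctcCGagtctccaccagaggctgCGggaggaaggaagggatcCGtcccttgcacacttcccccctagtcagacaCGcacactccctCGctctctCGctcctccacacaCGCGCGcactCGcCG
The window of Cdh20 held 18 CG dinucleotides, that of Pcdh10 24, that of Pcdh9 19 and that of Cdh22 38, against a median of 7 and an upper quartile of 20 over the 32851 windows of the table. The window of Pcdh15 held 8. The E-box word CAGGTG, searched on both strands, occurred in 20.2% of all windows and in 5 of the 25 member windows, and CAGCTG, which reads the same on both strands, in 16.3% and in 3. Cdh20, Pcdh10, Pcdh9 and Cdh22 held neither word in these windows, and Pcdh15 held each of them once.

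In the Pcdhg cluster 20 of 21 genes were negative with 4HBP in proliferation medium, with a median of -0.22, and Pcdhga8 was the exception. Pcdhga8 had 20.1, 18.1 and 20.0 CPM in controls and 28.2, 29.2 and 30.8 CPM with 4HBP. All libraries with 4HBP lay above all controls, and the gene rose by 0.57 ± 0.09 on the log2 scale (edgeR adjusted p = 0.01). Its share of the cluster's counts was 1.11% ± 0.083 in controls and 1.91% ± 0.11 with 4HBP (SD, n = 3 and 3), and 44.7% of its 100-base words occur in other genes, close to the median of the cluster.

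Pcdhga3 fell from 58.4, 65.8 and 62.6 CPM in controls to 51.5, 46.0 and 53.2 CPM with 4HBP (-0.34 ± 0.08, edgeR adjusted p = 0.0409). Pcdhgb6 fell from 36.6, 42.7 and 41.8 CPM to 31.2, 32.2 and 34.2 CPM (-0.34 ± 0.09, edgeR adjusted p = 0.0463). Pcdhgc3 had 1071, 1129 and 1114 CPM in controls and 1001, 981 and 954 CPM with 4HBP, and although the groups did not overlap, the difference of -0.21 ± 0.08 missed the threshold (edgeR adjusted p = 0.151). The sum over the 21 genes was 1699, 1771 and 1757 CPM in controls and 1557, 1538 and 1522 CPM with 4HBP, also without overlap. Fitted in place of the single genes it gave -0.21 ± 0.08 (edgeR adjusted p = 0.142). When all 11 libraries shared 1 fit, the same difference passed with a smaller SE (-0.21 ± 0.05, edgeR adjusted p = 0.0189). That fit shares its spread between the media, although replicates differed less in differentiation medium.

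Pcdha genes had few counts in proliferation medium. Pcdha7 had 15.03, 17.6 and 3.9 expected counts in the control libraries and 33.6, 43.7 and 44.4 with 4HBP, and it was higher with 4HBP (1.68 ± 0.43, edgeR adjusted p = 0.0476). Pcdhac1, 1 of the 2 C-type genes of the cluster, had 8.74, 6.77 and 3.73 expected counts in controls and 17.7, 18.1 and 37.4 with 4HBP (1.81 ± 0.46, edgeR adjusted p = 0.0461). Pcdha5 went the other way, with 31.7, 18.8 and 25.3 expected counts in controls and 9.65, 3.99 and 3.13 with 4HBP (-2.17 ± 0.48, edgeR adjusted p = 0.0305). The groups of all 3 genes did not overlap, and between 51.9% and 60.7% of their words were shared with other genes. The sum of the 14 Pcdha genes was 31.6, 31.8 and 33.6 CPM in controls and 36.3, 41.4 and 39.3 CPM with 4HBP (0.24 ± 0.08, edgeR adjusted p = 0.109, and 0.0206 in the fit of all 11 libraries). In the Pcdhb cluster 18 of 21 tested genes were negative and 0 passed in edgeR (2 had an unadjusted p under 0.05), and its sum differed by -0.17 ± 0.08 (edgeR adjusted p = 0.235).

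Cdh8 is a type II cadherin for which the study designed qPCR primers. The study called genes at p under 0.05 by limma together with a cut on fold change, and names no adjustment of that p. It reports that qPCR bore out the top ones of proliferation medium. Its text does not name them. Here Cdh8 was too low to pass the filter in proliferation medium. It had 14, 6 and 15 counts in the control libraries and 1, 1 and 7 counts with 4HBP, so that the ranges overlapped through replicate 3 with 4HBP. Without the filter the log2 fold change was -1.96 ± 0.73 (edgeR unadjusted p = 0.0139, adjusted p = 0.133). In limma on log2(CPM+1) it was -0.44 ± 0.15 (unadjusted p = 0.0264, adjusted p = 0.198). Cdh8 was thus under 0.05 in both fits before adjustment and in neither after it. Over the alternatives that gave Cdh8 a value, the adjusted p lay between 0.0344, without replicate 3 of the 4HBP group, and 0.29.

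**Figure D3:**
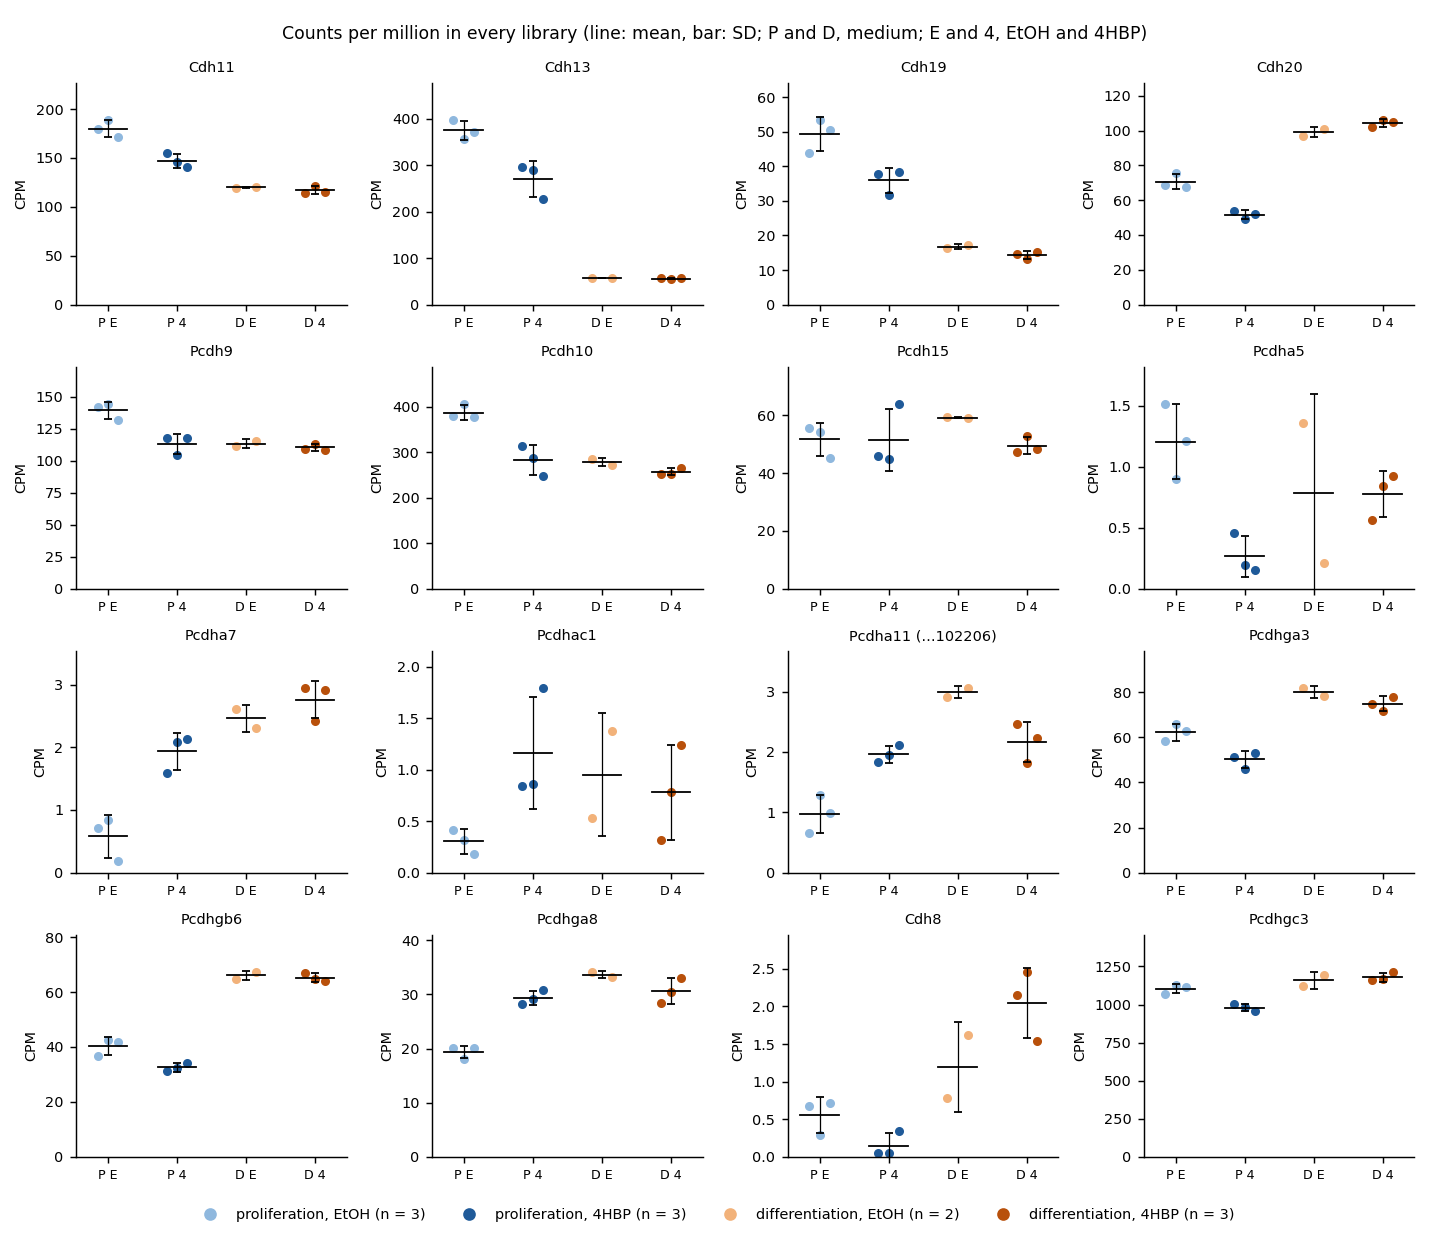
CPM in every library of the 14 genes past the threshold for 4HBP or for the difference between its effects, with Cdh8 and Pcdhgc3 (horizontal line, mean; bar, SD; P and D mark the medium, E and 4 mark EtOH and 4HBP). Cdh20 falls from 67.9 to 75.7 CPM in control proliferation libraries to 49.2 to 54.0 CPM with 4HBP and is near 100 CPM in all differentiation libraries, and Pcdhga8 rises with 4HBP in proliferation medium.

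In differentiation medium the question was the same, with cells that were free to become neurons and glia. Of 77 members tested, 1 passed in edgeR, or 1.3%, against 2.55% of all 15484 genes tested. It was Pcdh15, known as a partner of Cdh23 in the tip links of inner ear hair cells. Pcdh15 had 59.3 and 59.0 CPM in the control libraries and 47.4, 52.8 and 48.2 CPM with 4HBP, and it fell by 0.25 ± 0.05 on the log2 scale (SE, n = 3 and 2, edgeR adjusted p = 0.0207). The call was lost when any library but replicate 2 with 4HBP was left out, and in limma, which called 0 genes of all.

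None of the 9 members called lower in proliferation medium passed here by edgeR. Cdh20 had 97.0 and 101 CPM in controls and 102, 106 and 105 CPM with 4HBP (0.08, not past the threshold). Cdh13 had 57.6 and 56.4 CPM in controls and 56.7, 55.2 and 56.5 CPM with 4HBP, which overlap. Pcdh10 had 285 and 273 CPM in controls and 252.0, 252.4 and 266 CPM with 4HBP. All 3 libraries with 4HBP lay below both controls, and the difference of -0.11 did not pass (edgeR adjusted p = 0.134). Cdh19 had 16.2 and 17.2 CPM in controls and 14.7, 13.1 and 15.2 CPM with 4HBP, again all 3 below both controls, with a log2 fold change of -0.22 ± 0.09 (unadjusted p = 0.024, edgeR adjusted p = 0.225). The median over all members tested was -0.03, and 49 of the 77 were negative. Cdh8 had 17 and 38 counts in controls and 48, 57 and 32 counts with 4HBP, an overlap, with a log2 fold change of 0.77 ± 0.33 (edgeR adjusted p = 0.253). The cluster sums differed by -0.03 ± 0.05 for Pcdha, -0.08 ± 0.04 for Pcdhb and -0.01 ± 0.03 for Pcdhg, with edgeR adjusted p-values of 0.876, 0.352 and 0.877.

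Whether the effect of 4HBP differed between the media was tested as an interaction over all 11 libraries. Of 78 members tested, 3 passed, or 3.85%, against 4.49% of all 15920 genes (2.01% higher and 2.48% lower). Cdh20 gave a difference of -0.57 ± 0.10 between the effect in proliferation and that in differentiation medium (edgeR adjusted p = 0.00811). For Pcdhga8 the difference was 0.69 ± 0.11 (edgeR adjusted p = 0.00584), with 34.1 and 33.2 CPM in control differentiation medium and 28.4, 30.4 and 33.1 CPM with 4HBP. Pcdha11 (ENSMUSG00000102206) had 0.66, 1.29 and 0.986 CPM in control and 1.83, 1.94 and 2.11 CPM in 4HBP proliferation libraries, but 2.92 and 3.06 CPM in control and 2.46, 1.81 and 2.23 CPM in 4HBP differentiation libraries. Its values did not overlap in either medium and lay in opposite directions, and the difference was 1.42 ± 0.36 (edgeR adjusted p = 0.0424). The call of Cdh20 was lost without replicate 1 of the EtOH differentiation libraries and that of Pcdha11 without any 1 of 7 libraries, while Pcdhga8 passed without each library in turn. For the other members that passed in proliferation medium, a difference between the media was not shown.

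**Figure D4:**
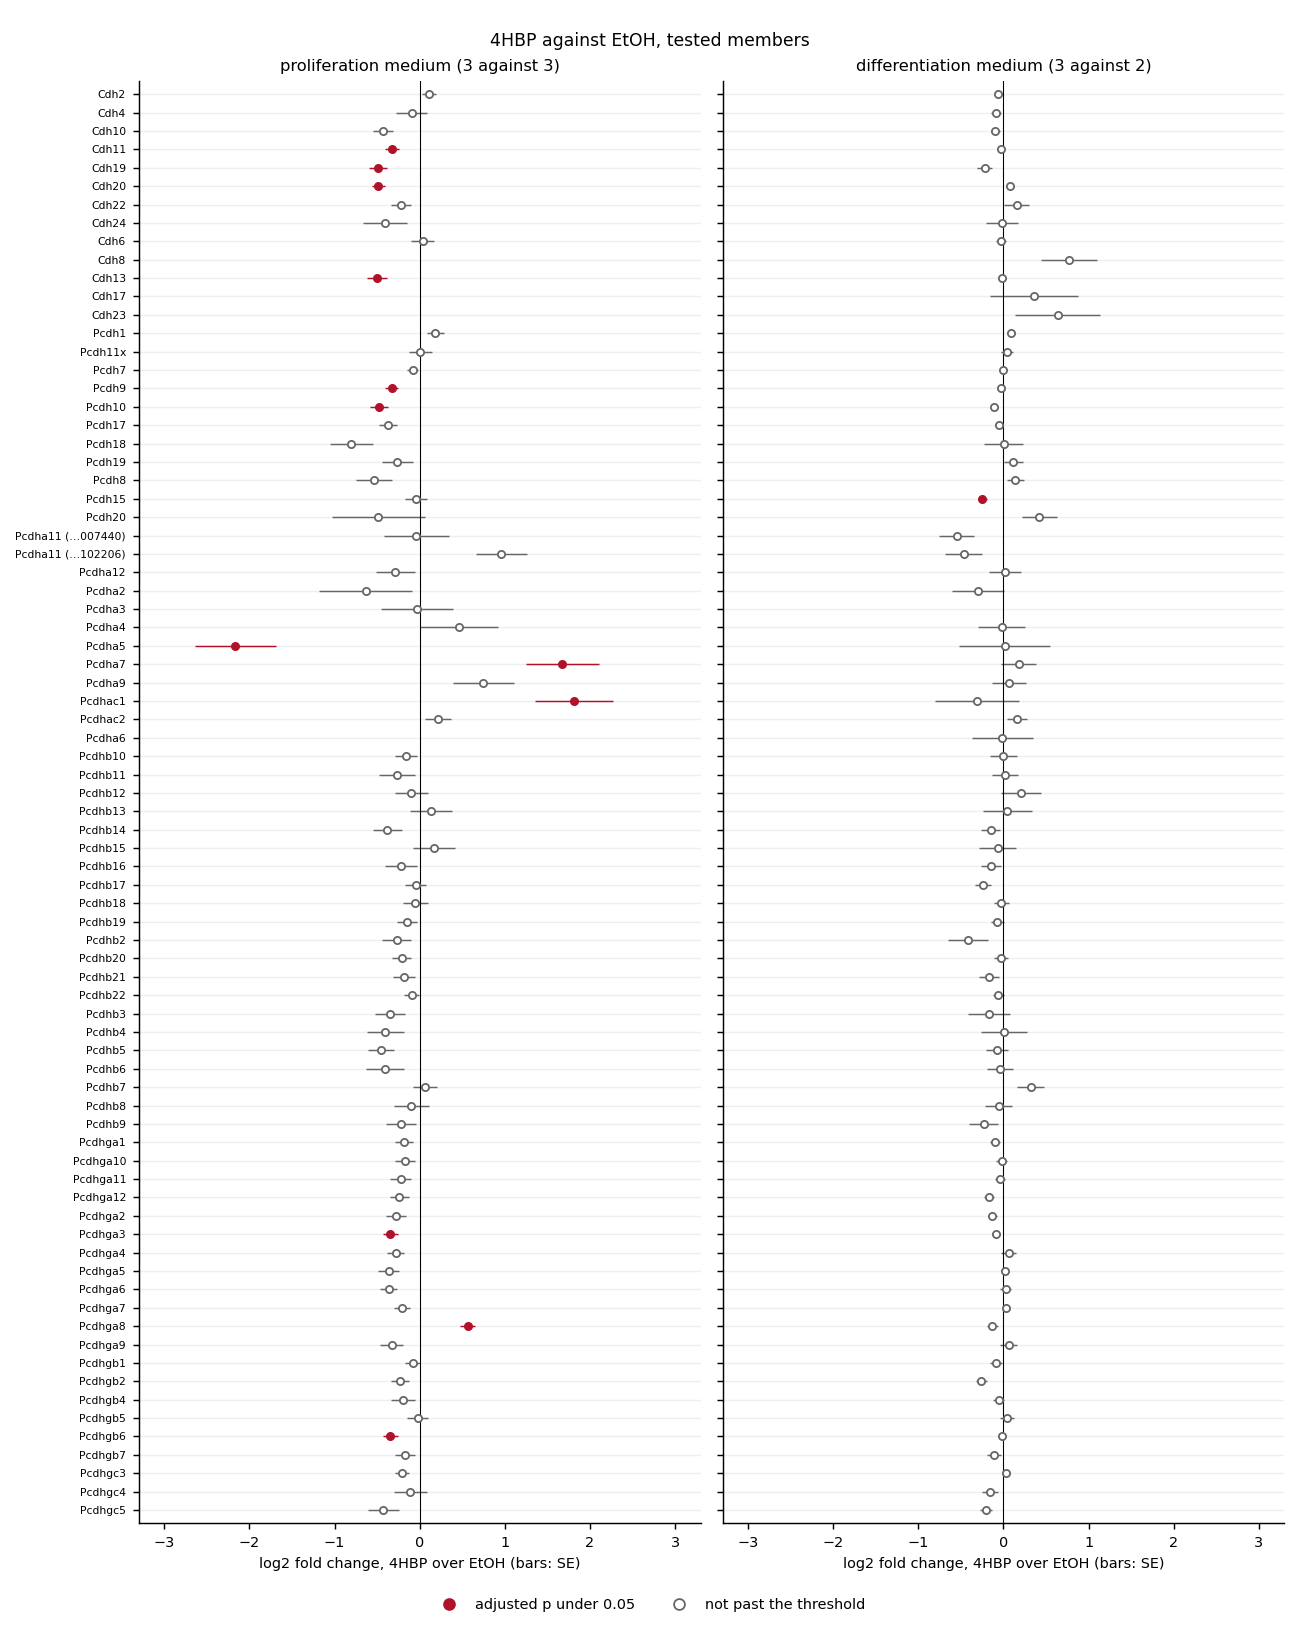
Log2 fold change of 4HBP over EtOH (points; bars, SE) for the members tested in proliferation medium (left) and differentiation medium (right), in the order of the subgroups, with filled points past an adjusted p of 0.05. On the left 60 of 74 points lie below 0 and Pcdhga8 is the single positive Pcdhg gene, and on the right Pcdh15 is the filled point.

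The larger changes came with the medium itself. In control cells 48 of 78 members (61.5%) passed in edgeR between differentiation and proliferation medium, 29 higher in differentiation and 19 lower. This is the share of all genes, of which 61.4% passed (30.8% higher and 30.6% lower), and the median of the members was 0.10 beside 0.03 over all genes. With 4HBP 48 members passed again (33 higher and 15 lower, against 67.2% of all genes, 33.3% higher and 33.8% lower). The group means compared came from other libraries than in control cells. Both comparisons, however, came from 1 fit of all 11 libraries and shared its filter, scaling and spread. The lists had 39 members in common, 81.2% of each, all 39 in the same direction. Over all genes the lists shared 86.9% of the control list and 79.5% of the 4HBP list, with 99.25% of the shared genes in the same direction, so that these shares say nothing particular of the members. Leaving out replicate 1 or replicate 2 of the EtOH differentiation libraries left 39 and 40 members called in control cells, and Pcdh20, Pcdha6, Pcdha12, Pcdhb3, Pcdhb4, Pcdhb12 and Pcdhb22 were among the genes that lost their call without 1 of these or of the EtOH proliferation libraries. Scaling by library totals moved the median of all genes in control cells from 0.03 to 0.11.

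The cadherins that fell most were Cdh13, Cdh22 and Cdh4. Cdh13 went from 398, 357 and 371 CPM in control proliferation medium to 57.6 and 56.4 CPM in control differentiation medium, a log2 fold change of -2.81 ± 0.12 (n = 3 and 2, edgeR adjusted p = 1.26e-09). Cdh22, a type II cadherin also called PB-cadherin, went from 32.7, 28.2 and 36.6 CPM to 4.88 and 5.63 CPM (-2.71 ± 0.15, edgeR adjusted p = 9.53e-09). Cdh4 went from 216, 172 and 247 CPM to 38.3 and 40.7 CPM (-2.50 ± 0.20, edgeR adjusted p = 2.51e-07). In each of the 3 the highest differentiation library was several-fold under the lowest proliferation library, and with 4HBP the values were -2.32, -2.33 and -2.49.

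Cdh19 (-1.64 ± 0.11) and Cdh11 (-0.67 ± 0.07) also fell, whereas Cdh20 (0.40 ± 0.07) and Cdh6 (0.43 ± 0.12) rose, so that the 5 type II members called were split 2 higher and 3 lower. Cdh2 did not pass, with 519.5 and 535 CPM in control differentiation medium beside 464, 478 and 514 CPM in control proliferation medium, ranges that overlapped once scaled by TMM (0.03 ± 0.07, edgeR adjusted p = 0.703). Cdh8 lay higher in every differentiation library than in any proliferation library, but in control cells the value of 1.02 ± 0.53 missed the threshold (edgeR adjusted p = 0.111). With 4HBP, where it started from 1, 1 and 7 counts, it passed (3.75 ± 0.58, edgeR adjusted p = 7.43e-05).

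Among the non-clustered protocadherins the δ families held changes in both directions. Pcdh8, also known as arcadlin for its regulation by neuronal activity, rose from 4.01, 4.14 and 5.40 CPM to 11.18 and 11.09 CPM (1.21 ± 0.16, edgeR adjusted p = 3.17e-05). Pcdh1 rose by 0.89 ± 0.09, Pcdh17 by 0.78 ± 0.10 and Pcdh7 by 0.40 ± 0.06. Pcdh20 rose by 1.17 ± 0.43 from between 13 and 30 counts to 42 and 60. Pcdh19, the gene mutated in a female-limited epilepsy, fell from 24.0, 24.9 and 24.5 CPM to 10.4 and 13.5 CPM (-1.12 ± 0.20, edgeR adjusted p = 2.6e-04). Pcdh10 (-0.56 ± 0.10) and Pcdh9 (-0.38 ± 0.07) fell too, and with 4HBP their values were -0.19 and -0.08, short of the threshold.

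The calls of each cluster were counted apart. In Pcdhg 15 of 21 genes rose in control cells and 1 fell, in Pcdhb 1 of 21 tested rose and 9 fell, and in Pcdha 6 of 12 rose and 1 fell. With 4HBP the counts were 18 and 1, 2 and 7, and 2 and 1. Of all genes tested, 30.8% were higher and 30.6% lower in control cells, and 33.3% and 33.8% with 4HBP. Genes of Pcdha and of Pcdhg share reads within their cluster, so that their calls are not separate observations. The median log2 fold change in control cells was 0.57 in Pcdhg, -0.27 in Pcdhb and 1.04 in Pcdha, and no test compared the clusters with one another.

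The gene of Pcdhg that fell was Pcdhgc5, a C-type gene, from 64.8, 53.5 and 81.1 CPM to 23.6 and 22.97 CPM (-1.60 ± 0.19, edgeR adjusted p = 8.64e-06). Pcdhgc4, the C-type gene known for its part in the survival of neurons, rose from 88.6, 63.7 and 47.1 CPM to 159 and 123 CPM (1.00 ± 0.20, edgeR adjusted p = 7.57e-04). Pcdhgc3 did not pass in control cells (-0.02 ± 0.07, edgeR adjusted p = 0.826). Its part of the cluster's counts was 63.4% ± 0.36 in control proliferation medium and 55.7% ± 2.1 in control differentiation medium (SD, n = 3 and 2). The 18 a-type and b-type genes together went from between 475 and 525 CPM to between 752 and 762 CPM.

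In Pcdha the C-type gene Pcdhac2 fell by 1.10 ± 0.17 and its part of the cluster went from 60.2% ± 7.9 to 26.9% ± 3.0. Over the same step Pcdha7 (1.96 ± 0.37), Pcdha6 (1.61 ± 0.59), Pcdha11 (ENSMUSG00000102206, 1.51 ± 0.27) and Pcdha12 (1.06 ± 0.24) rose. In control cells the sum of the 14 genes did not pass, with 31.6, 31.8 and 33.6 CPM in proliferation and 36.4 and 35.5 CPM in differentiation medium (0.06 ± 0.07, edgeR adjusted p = 0.435). In Pcdhb the largest falls were those of Pcdhb12 (-0.82 ± 0.22), Pcdhb4 (-0.78 ± 0.27) and Pcdhb3 (-0.69 ± 0.23), and Pcdhb22 rose by 0.21 ± 0.07. The sum over Pcdhb fell by 0.19 ± 0.07 (edgeR adjusted p = 0.0362) and that over Pcdhg rose by 0.17 ± 0.06 (edgeR adjusted p = 0.0291). Both calls were lost in several alternatives, and with library totals the Pcdhb sum gave -0.10 (adjusted p = 0.25). With 4HBP the Pcdhg sum rose by 0.38 ± 0.05 between the media (edgeR adjusted p = 4.56e-05), the Pcdha sum fell by 0.19 ± 0.06 (edgeR adjusted p = 0.0151) and the Pcdhb sum gave -0.09 ± 0.07 (edgeR adjusted p = 0.228).

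Markers of cell types moved between the same libraries. The 6 NSC markers, all lower in edgeR, went from between 4541 and 5339 CPM in sum in control proliferation medium to between 1588 and 1613 CPM in control differentiation medium. The 7 oligodendrocyte lineage markers went from between 2673 and 3310 CPM to between 7034 and 7448 CPM, with 5 of 7 higher in edgeR and none lower. Of the 6 neuronal markers, Snap25 (1.26), Rbfox3 (0.74) and Dcx (0.55) were higher and Map2 (-0.33) was lower, while their sum, most of it Map2, went from between 926 and 1022 CPM to between 939 and 962 CPM. The astrocyte markers were split into 3 higher, among them Slc1a2 (1.80), and 3 lower, among them Aldh1l1 (-1.59), and their sum went from between 7178 and 7888 CPM to between 8315 and 8404 CPM. In the pericyte and fibroblast list Pdgfrb rose by 5.29 on the log2 scale, from at most 1.38 CPM to as much as 30.5 CPM. Col1a1 rose by 1.82, and it and the other 3 genes of that list were at or under 0.59 CPM in every library. How much of the cadherin changes moves with these markers was not tested.

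Other genes of the pathway were counted from lists. Catenins and junction partners link classical cadherins to actin. Of the 10 tested, 0 passed with 4HBP in proliferation medium by edgeR, against 7.43% of all genes. In differentiation medium, where 1.29% of all genes were lower, 2 of them were. They were p120 catenin (Ctnnd1, -0.15 ± 0.04, edgeR adjusted p = 0.0363) and vinculin (Vcl, -0.31 ± 0.04, edgeR adjusted p = 7.08e-04). Between the media in control cells 6 of 10 were higher and 3 lower, where 30.8% of all genes tested were higher and 30.6% lower. Of 11 regulators of the clusters, among them CTCF and the cohesin subunits, the histone methyltransferase gene Setdb1 alone passed with 4HBP in proliferation medium (0.27 ± 0.07, edgeR adjusted p = 0.0498). In differentiation medium 9 of the 11 were lower than in proliferation medium in control cells and 11 of 11 with 4HBP, with none higher in either. Of all genes tested, 30.6% were lower in control cells and 33.8% with 4HBP. Of the 6 proteases that cut cadherins, 3 were higher and 1 lower between the media in control cells, and of 8 tested large and seven-pass cadherins outside the rule for symbols 4 were higher and 1 lower, with 0 of either list past the threshold with 4HBP in edgeR.

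**Figure D5:**
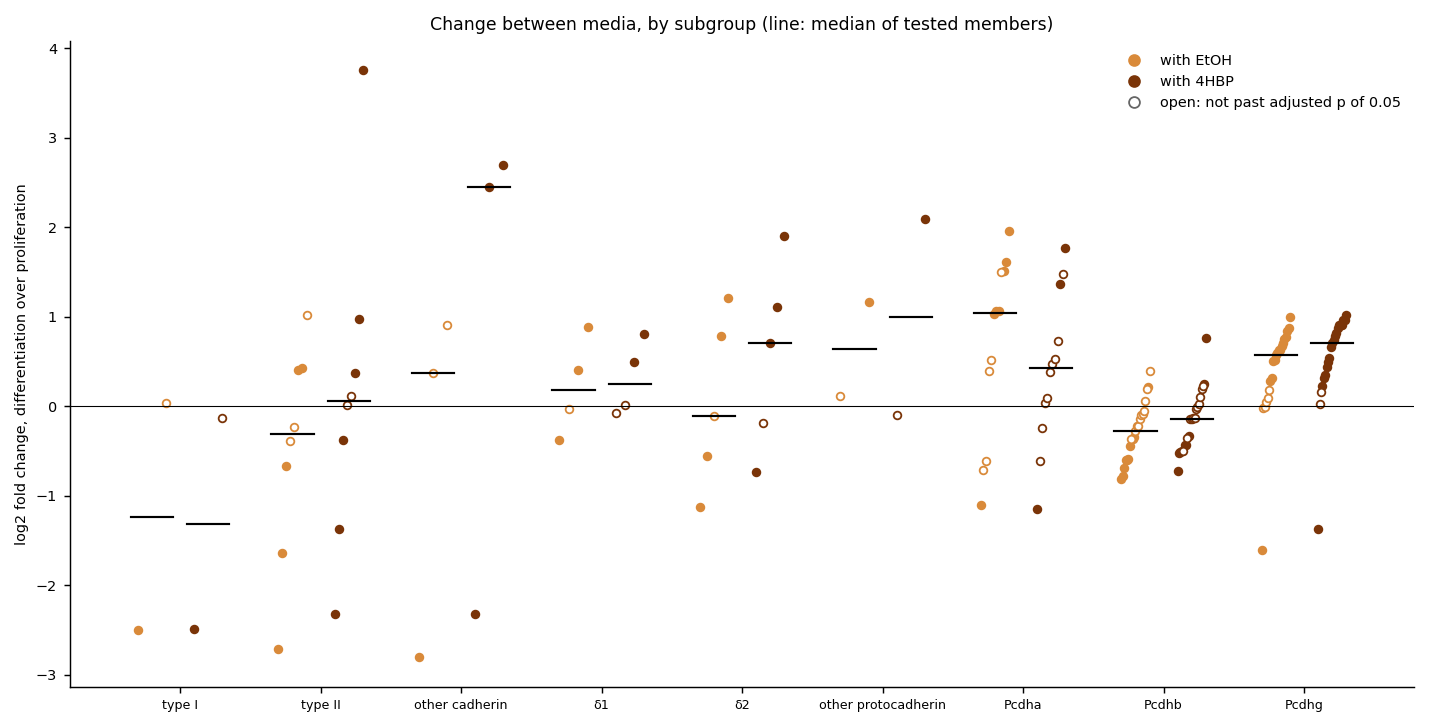
Log2 fold change of differentiation over proliferation medium for each tested member, by subgroup (1 point per gene; left column of each pair, EtOH; right column, 4HBP; open points, adjusted p not under 0.05; line, median of the tested members). The Pcdhg genes lie above 0 apart from Pcdhgc5 and a few genes near 0, most Pcdhb genes lie below 0, and Cdh13, Cdh22 and Cdh4 lie below -2.3 in both columns.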

How the data were processed

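The authors trimmed reads of stranded, poly(A)-selected libraries with cutadapt and quantified them with RSEM 1.3.0 and Bowtie2 2.2.9 on GRCm38 (mm10) with GENCODE vM17. They deposited expected counts (unnormalized) and TPM values (scaled by RSEM to transcript length and depth) for each gene and library. Symbols came from GENCODE vM21 by gene identifier (53620 matched). CPM are expected counts over the library total. TPM depend on the other transcripts of a library and served to order genes within a group.

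Expected counts were rounded, filtered with filterByExpr by group, scaled by TMM and tested over all genes with edgeR 4.0.16 (glmQLFit and glmQLFTest, two-sided, Benjamini-Hochberg, R 4.3.3). The 6 proliferation and the 5 differentiation libraries were fitted apart for 4HBP against EtOH, and all 11 together for the interaction and the media. In further fits the genes of each cluster were replaced by their sum. The tests were checked on simulated counts. Alternatives were library totals, limma 3.58.1 on log2(CPM+1), DESeq2 1.42.0, no filter, all 11 libraries in 1 fit or only the groups compared, each library left out, and a replicate block. No duplicated library was found. Scripts ran in Python 3.11.15.

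The members, gene lists and tests were chosen with earlier results of these data known. Members named one by one were those past an adjusted p of 0.05 for 4HBP or the interaction, those with a mean of at least 10 TPM in a group, the 3 with the largest change between media in control cells per subgroup among those past the threshold, and Cdh8. Others were named after their values were seen. Floors cover counting error only, whereas the SDs and SEs carry the spread between these libraries.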

Additional observations from a re-analysis of the deposited data

Results flagged for a closer look

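These members were listed because the test of the interaction itself passed in edgeR. The difference between the 4HBP effects (proliferation minus differentiation medium, log2) was -0.57 for Cdh20, 0.69 for Pcdhga8 and 1.42 for Pcdha11 (ENSMUSG00000102206). When each library was left out in turn, the adjusted p lay between 0.00398 and 0.0751 for Cdh20, between 0.00331 and 0.0435 for Pcdhga8 and between 0.0352 and 0.168 for Pcdha11. Pcdhga8 and Pcdha11 share 44.7% and 41.6% of their 100-base words with other genes. The groups held 2 or 3 libraries, too few for a test of single outlying libraries.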

How the results depend on the processing

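In proliferation medium the 12 members called for 4HBP became 0 with limma on log2(CPM+1) and 21 with all 11 libraries in 1 fit, and leaving out 1 library gave between 0 and 12. In that fit of all 11 libraries the Pcdha and Pcdhg sums passed the threshold (0.24 and -0.21). In differentiation medium the 1 member called became 2 with library totals, 0 with limma and with all 11 libraries, 3 without a filter, and 0 to 1 when a library was left out. For the interaction the 3 members became 1 with limma on log2(CPM+0.1), 8 with DESeq2 and 10 without a filter, and between 1 and 8 without 1 library. The 48 members called between the media stayed between 39 and 51 in control cells and between 44 and 50 with 4HBP. For the cluster sums between the media in control cells, Pcdhb was no longer called with library totals (-0.10) and with limma (-0.10), and without 1 library the values lay between -0.24 and -0.15 for Pcdhb and between 0.14 and 0.19 for Pcdhg. Among single genes, 636 of the values under an alternative kept the outcome of the main fit, 134 lost their call and 3 gained one. Direction changed in 0 of them. These counts pool unlike comparisons and cover only the members called in the main fit, with Cdh8, which had no call to lose. Only Cdh8 could therefore gain a call here. Other members newly called under an alternative are part of the counts of members above but not of these values. All 12 genes called for 4HBP in proliferation medium lost the call with limma, and without EtOH replicate 1 or 2. Between the media in control cells, at most 11 calls were lost under 1 alternative, that without replicate 1 of the EtOH differentiation libraries. The cause of these changes was not tested.

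Replicate numbers did not pair the libraries: deviations of same-numbered libraries from their group means correlated at between -0.13 and 0.08 over 14919 genes. With the replicate block 3 members were called for 4HBP in proliferation medium, 3 in differentiation medium and 1 for the interaction, and the Pcdhb sum (-0.20) and the Pcdhg sum (0.17) between the media were not called.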
